A study of Mus musculus with 8 samples.

Results

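Calcium signalling in heart muscle reaches the nucleus through calmodulin, which switches on the kinase CaMKII and the phosphatase calcineurin. The expression of 10 of their genes was described here: the 4 CaMKII genes Camk2a, Camk2b, Camk2d and Camk2g, the calcineurin catalytic subunit genes Ppp3ca and Ppp3cb, the calcineurin regulator gene Rcan2, and the transcription factor genes Nfatc1, Nfatc3 and Nfatc4. They were chosen by name, with earlier results of these data known, from the 49315 genes of the deposited count table. All 10 were among the 16180 that passed the filter on low counts. RNA sequencing covered hearts of C57BL/6 mice, an inbred laboratory strain, aged 8 weeks, with 4 libraries from females and 4 from males. The groups differ by sex alone in the labels, which name no treatment or engineered allele and do not say whether each library is a separate animal or which chambers were taken. If libraries share an animal, p-values measure only the spread between these samples.

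CaMKII is a ring of subunits that calcium-loaded calmodulin switches on and that can then keep itself active. In heart muscle it phosphorylates the ryanodine receptor, phospholamban and calcium channels, as well as class IIa histone deacetylases that hold back the transcription factor MEF2. Calcineurin pairs a catalytic subunit with a calcium-binding one and dephosphorylates NFAT proteins, which then enter the nucleus, and the pathway is known for its part in pathological growth of the heart. Proteins of the RCAN family bind calcineurin and modulate it. Kinases such as GSK3, DYRK and CK1 phosphorylate NFAT again and send it back to the cytoplasm.

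The libraries held 32746054 to 35467832 counts in females and 39612848 to 47097765 in males, so depth moved with sex, and the mitochondrial share of counts was 9.96% to 11.4% and 12.1% to 12.5%. Levels of Xist and of Y-linked genes matched the labelled sex in all 8 libraries. The members had 1991 to 140235 counts over the 8 libraries, the fewest for Nfatc4 and the most for Rcan2. The 10 cardiomyocyte markers summed to between 90445 and 99557 CPM (the count of a gene scaled by library size) in every library. Male replicate 1 stood apart by leukocyte markers, at 176 CPM in sum for 8 markers beside 85.4 to 94.9 in the other 7 libraries. Male replicate 4 stood apart by atrial markers, at 485 CPM for 8 markers beside 2379 to 2882. White adipocyte markers, at 90 to 189 CPM in females and 16.7 to 51.7 in males, and fibroblast markers, at 1287 to 1351 and 1072 to 1221, did not overlap between the sexes. All 8 adipocyte markers and 2 of 8 fibroblast markers passed the test described next. Endothelial markers (1287 to 1453 CPM in females, 1291 to 1405 in males) overlapped in sum. So did smooth muscle and pericyte markers (1076 to 1160 and 1074 to 1138) and markers of nerve and Schwann cells (10.9 to 13.1 and 9.56 to 12.0). Of 8 endothelial markers, Tie1 passed the test, higher in males. Of 8 smooth muscle and pericyte markers, Rgs5 passed, higher in males, and Acta2, higher in females (median log2 fold change of the list, male minus female, -0.15). Of 6 nerve and Schwann cell markers tested, 0 passed. In such bulk tissue, fewer cells of a type and less RNA per cell cannot be told apart.

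None of the 10 genes differed between the sexes past the threshold. Counts were compared with the quasi-likelihood test of edgeR over all 16180 genes, and a gene was called at a Benjamini-Hochberg adjusted p below 0.05. By this rule 0 of 10 members were called, beside 3.79% of all genes tested (613 genes). At an unadjusted p below 0.05 there were 5 of 10, beside 19.5% of all genes, and 2 to 4 of 10 with any 1 library left out, beside 15.7% to 18.6%. The members were not chosen blind to these data, so these shares are a description only. DESeq2 called 1 member, Camk2b, beside 6.13% of the 15620 genes to which it gave an adjusted p, and limma-voom called 0, beside 3.80%. At an unadjusted p below 0.05 DESeq2 had 3 members, beside 9.35% of 30510 genes with no filter on low counts, and limma-voom had 4, beside 19.4%. The CPM of the sexes did not overlap for 2 members, beside 12.0% of all genes. These were Ppp3ca, higher in males like 6.39% of all genes, and Nfatc4, higher in females like 5.66%. The 4 CaMKII genes had log2 fold changes (male minus female) of -0.0013 to 0.36, those of the 3 calcineurin genes were 0.06 to 0.11, and those of the 3 NFAT genes were -0.19 to -0.05. The median over the members was 0.06, beside -0.00074 over all genes tested, and the median size regardless of sign was 0.088 and 0.090. Depth and the mitochondrial share, given above, moved with sex beside these values, and their part was not tested.

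**Figure D1:**
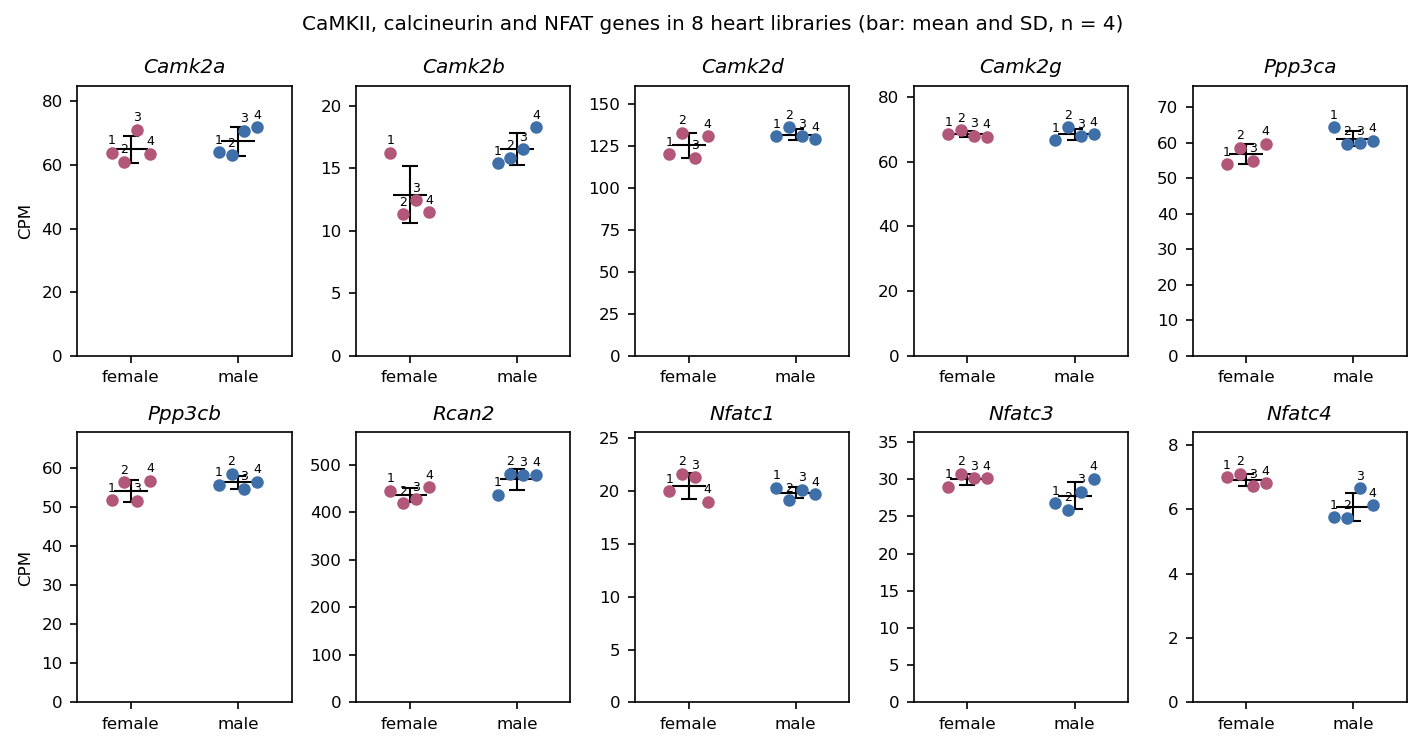
CPM of the 10 genes in each library, in females and males (n = 4 each), with the replicate number beside each point and bars for mean and SD; every axis starts at 0. The ranges of the sexes overlap in every panel except Ppp3ca and Nfatc4. Camk2b shows the widest gap between the means relative to its level, with female replicate 1 at 16.2 CPM among the male values.

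Camk2d encodes the delta subunit, known as the main CaMKII of heart muscle (chromosome 3, 126596302 to 126846326 in GRCm38, the build of all coordinates here). Its level was 120.1, 133, 118 and 131 CPM in female replicates 1 to 4 and 131, 136, 131 and 129 in the males. The female values spread over the wider range and enclosed 3 of the 4 male values. The log2 fold change was 0.07 (SE 0.04, 95% interval -0.03 to 0.17, adjusted p = 0.41 by edgeR).

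Camk2g encodes the gamma subunit, which is found in many tissues (chromosome 14, 20734875 to 20794088). It was the steadiest member, at 68.5, 69.7, 68.0 and 67.8 CPM in females and 66.7, 70.7, 67.9 and 68.4 in males. All 8 values lay within 66.7 to 70.7, and the 95% interval of the log2 fold change, -0.07 to 0.07, was the narrowest of the 10.

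Camk2a encodes the alpha subunit, best known from brain (chromosome 18, 60925618 to 60988152). In muscle the gene also gives alphaKAP, an anchoring protein without a kinase domain, and counts per gene do not separate the transcripts. Its level was 63.9, 61.0, 71.1 and 63.5 CPM in females and 64.0, 63.0, 70.8 and 71.9 in males. Each sex held both lower and higher libraries and the ranges overlapped almost entirely (log2 fold change 0.06, 95% interval -0.07 to 0.18, adjusted p = 0.65 by edgeR).

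Camk2b encodes the beta subunit, which binds actin filaments in neurons (chromosome 11, 5969644 to 6066362). It had the lowest CPM of the CaMKII genes, at 16.2, 11.4, 12.4 and 11.5 in females and 15.4, 15.9, 16.5 and 18.3 in males. Female replicates 2 to 4 lay below every male library, and female replicate 1 lay among the males. The level was 12.9 ± 2.29 CPM in females and 16.5 ± 1.26 in males (SD, n = 4 each), and the log2 fold change of 0.36 (SE 0.11, 95% interval 0.13 to 0.59) missed the threshold (adjusted p = 0.086 by edgeR). Camk2b was called by edgeR without female replicate 1 (0.49, adjusted p = 0.0092) and with no filter on low counts (0.37, adjusted p = 0.016), and in DESeq2 (0.36, adjusted p = 0.02). Over all alternatives its log2 fold change was 0.30 to 0.49 and its adjusted p 0.0092 to 0.25. The summed skeletal muscle markers had the same order of the sexes, at 246 to 402 CPM in females, highest in replicate 1, and 429 to 625 in males. Among males the order differed, since the sum was highest in replicate 3 and was 438 CPM in replicate 4, where Camk2b was highest. Acta1, an actin gene that heart muscle also expresses, made up nearly all of that sum, at 315 ± 63.8 CPM in females and 508 ± 96.7 in males (SD, n = 4 each), and was the 1 called of 5 markers tested (adjusted p = 0.028 by edgeR). The list as a whole had a median log2 fold change of -0.12, and 3 of the 5 (Mylpf at -0.24, Tnnt3 at -0.71 and Atp2a1 at -0.12) had values below 0. Myh4, Myh1 and Myh2, myosins that define fast skeletal fibres, were each below 0.2 CPM on average in both sexes. Their part in the Camk2b values was not tested.

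**Figure D2:**
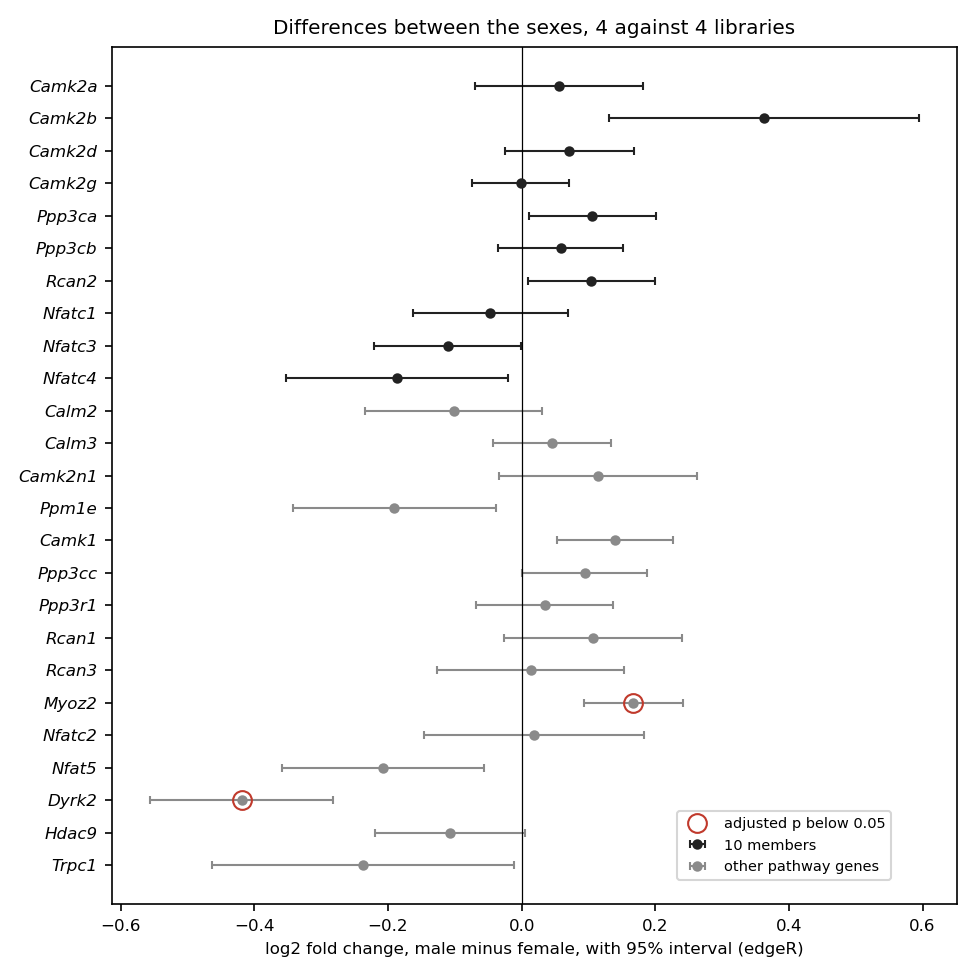
Log2 fold change, male minus female, with the unadjusted 95% interval from edgeR (4 against 4 libraries) for the 10 members in black and other pathway genes in grey; red circles mark an adjusted p below 0.05. Camk2b lies farthest from 0 among the members at 0.36, and the circled genes are Myoz2 at 0.17 and Dyrk2 at -0.42.

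Ppp3ca encodes the alpha catalytic subunit of calcineurin (chromosome 3, 136670124 to 136937727). It stood at 53.9, 58.6, 54.9 and 59.68 CPM in females and 64.3, 59.69, 59.8 and 60.6 in males. The ranges failed to overlap only by the gap between 59.68 and 59.69, and male replicate 1, the library with raised leukocyte markers, was the highest. The part of those markers in the Ppp3ca values was not tested. The log2 fold change was 0.11 (SE 0.04, 95% interval 0.01 to 0.20, adjusted p = 0.21 by edgeR), and 0.08 without male replicate 1 (adjusted p = 0.39).

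Ppp3cb encodes the beta catalytic subunit (chromosome 14, 20499364 to 20546573), which mouse knockouts have linked to growth of the heart under load. Its level was 51.8, 56.3, 51.6 and 56.7 CPM in females and 55.7, 58.5, 54.7 and 56.4 in males. Female replicates 1 and 3 lay below all other libraries, and replicates 2 and 4 lay among the males (log2 fold change 0.06, 95% interval -0.04 to 0.15, adjusted p = 0.49 by edgeR).

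Rcan2, a calcineurin regulator gene (chromosome 17, 43801851 to 44039516), had by far the highest CPM of the members. It was at 446, 419.5, 428 and 453 CPM in females and 437, 482, 479.6 and 479.5 in males. Male replicates 2 to 4 lay close together above every female library, while male replicate 1 lay among the females. The log2 fold change was 0.10 (SE 0.04, 95% interval 0.01 to 0.20, adjusted p = 0.21 by edgeR), and 0.14 without male replicate 1 (adjusted p = 0.12).

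The promoter windows of Rcan1 and Rcan2 are shown because Rcan2 was the member of highest level, because Rcan1 is its close relative, and because an internal start of Rcan1 is known to respond to calcineurin through NFAT. The windows run from base 250 to base 11 before a RefSeq start, in GRCm38.p6, on the strand of the gene, and capitals mark the core letters that NFAT proteins bind, GGAAA, on either strand (TTTCC in the printed strand).
Rcan1, upstream start, chr16:92466180-92466419, minus strand: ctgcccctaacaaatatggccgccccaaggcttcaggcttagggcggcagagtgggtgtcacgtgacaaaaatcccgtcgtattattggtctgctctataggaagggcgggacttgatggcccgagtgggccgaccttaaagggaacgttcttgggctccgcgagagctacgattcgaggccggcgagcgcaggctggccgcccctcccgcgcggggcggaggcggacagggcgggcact
Rcan1, internal start, chr16:92400089-92400328, minus strand: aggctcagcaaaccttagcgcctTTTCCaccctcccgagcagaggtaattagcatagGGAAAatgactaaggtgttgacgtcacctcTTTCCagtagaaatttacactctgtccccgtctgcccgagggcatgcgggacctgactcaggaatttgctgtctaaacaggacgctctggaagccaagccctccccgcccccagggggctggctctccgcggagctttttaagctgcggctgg
Rcan2, most upstream start, chr17:43801102-43801341, plus strand: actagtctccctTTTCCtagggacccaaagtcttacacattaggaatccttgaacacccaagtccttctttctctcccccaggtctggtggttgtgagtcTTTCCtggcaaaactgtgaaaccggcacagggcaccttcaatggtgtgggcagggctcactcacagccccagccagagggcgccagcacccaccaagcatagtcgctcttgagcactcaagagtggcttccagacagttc
Rcan2, internal start, chr17:43952749-43952988, plus strand: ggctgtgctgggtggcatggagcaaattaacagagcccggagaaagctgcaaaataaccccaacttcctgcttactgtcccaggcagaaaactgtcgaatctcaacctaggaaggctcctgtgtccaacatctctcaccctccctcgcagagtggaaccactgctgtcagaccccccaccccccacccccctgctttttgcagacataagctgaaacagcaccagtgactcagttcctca
The internal Rcan1 window held 3 matches, the most upstream Rcan2 window 2, and the other windows printed 0. Rcan2 has 3 RefSeq starts, and the window of the remaining one (chr17:43801601-43801840), which lies downstream of the most upstream start and just before the gene start of the deposited annotation, also held 0 and is not printed. These letters occur in 54.1% of all 32851 RefSeq windows of 240 bases, so a match describes the letters and not a bound site. RefSeq windows were matched for 6 of the 10 members (not Camk2a, Camk2g, Ppp3ca or Nfatc1). Of the other members, Ppp3cb and Nfatc4 had 3 matches each, Camk2d had 1, Nfatc3 had 1 at the first of its starts and 0 at the other, and Camk2b had 0. The gene counts do not tell which start gave the reads.

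The 3 NFAT genes were among the members of lower CPM, and their log2 fold changes were all negative. Nfatc1, known for its role in heart valve development and in endocardium (chromosome 18, 80606205 to 80713071), was at 20.0, 21.6, 21.3 and 19.0 CPM in females and 20.3, 19.2, 20.1 and 19.7 in males. Every male value lay inside the female range (log2 fold change -0.05, 95% interval -0.16 to 0.07, adjusted p = 0.68 by edgeR).

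Nfatc3, whose loss in mice blunts growth of the heart driven by calcineurin (chromosome 8, 106058840 to 106130537), was at 29.0, 30.7, 30.2 and 30.1 CPM in females and 26.8, 25.9, 28.3 and 30.1 in males. Male replicate 4, the library with low atrial markers, lay among the females and the other males below them. The part of those markers in the Nfatc3 values was not tested. The log2 fold change was -0.11 (SE 0.05, 95% interval -0.22 to -0.00064, adjusted p = 0.25 by edgeR), and -0.15 without male replicate 4 (adjusted p = 0.13). Of its exon bases, 1.87% are shared with Esrp2 on the opposite strand, which had 289 counts in all, beside 8898 for Nfatc3. No other member shared exon bases with another gene of the deposited annotation.

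Nfatc4, whose product binds the cardiac transcription factor GATA4 (chromosome 14, 55824795 to 55833943) was the member with the fewest counts, at 7.01, 7.10, 6.73 and 6.80 CPM in females and 5.75, 5.73, 6.66 and 6.13 in males. All 4 females lay above all 4 males, by a margin of less than 0.1 CPM at the closest pair. The level was 6.91 ± 0.175 CPM in females and 6.07 ± 0.433 in males (SD, n = 4 each), with a log2 fold change of -0.19 (SE 0.08, 95% interval -0.35 to -0.02, adjusted p = 0.21 by edgeR). The adipocyte and fibroblast markers given above were also higher in females, and their part in the Nfatc4 values was not tested.

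Levels of different genes can be compared only per transcript length, and the order of the members depended on the length used. Summed exon length counts every exon of a gene in the deposited annotation. Per kilobase of that length, Rcan2 came first at 121 ± 6.6 CPM per kilobase (SD over 8 libraries) and Camk2g second at 18.5 ± 0.33. Ppp3cb and Camk2a (9.17 and 8.86) followed, then Ppp3ca and Camk2d (5.90 and 5.72), Nfatc1 and Nfatc3 (2.71 and 2.46), and Nfatc4 and Camk2b (1.61 each). The 8 values of the genes overlapped within each of these pairs and not between one pair and the next. Camk2d has 22493 bases of summed exons but 5524 in its principal transcript (the one APPRIS ranks first), while both lengths are 3703 for Camk2g.

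Per kilobase of principal transcript, a scale chosen after the data were seen, Rcan2 remained first at 140.5 ± 7.66. Ppp3ca (26.9 ± 1.49) and Camk2d (23.3 ± 1.14) overlapped in the next places, ahead of Camk2g at 18.5. Ppp3cb and Camk2a overlapped at 14.4 and 13.3, as did Nfatc3, Nfatc1 and Camk2b at 4.83, 4.47 and 3.66, and Nfatc4 came last at 1.99. Rcan2 was therefore first on both scales, and the leading CaMKII gene was Camk2g on one and Camk2d on the other.

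The same held for the makeup of each family. Camk2d gave 16.5% ± 0.802 of the CaMKII sum per summed exon length and 39.6% ± 1.56 per principal transcript (SD, n = 8 libraries). Camk2g gave 53.3% ± 1.24 and 31.5% ± 0.864. Among the 3 calcineurin catalytic genes, Ppp3ca gave 19.6% ± 0.625 and 47.8% ± 0.92, and Ppp3cc, the subunit best known from testis, 50.02% ± 1.3 and 26.6% ± 0.989. The summed exons of Ppp3cc in the deposited annotation, 1948 bases, are shorter than its principal transcript of 1970 bases in GENCODE M21. The 2 scales therefore rest on different annotations of this gene. Among the 4 NFAT genes that calcineurin controls, Nfatc1 gave 31.8% on both scales and Nfatc3 28.9% ± 0.984 and 34.3% ± 1.15. Between the sexes, the share of Camk2d per summed exon length was 16.3% ± 1.06 in females and 16.7% ± 0.544 in males, and that of Camk2b was 4.13% ± 0.732 and 5.15% ± 0.307 (SD, n = 4 each; no test was run on shares).

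**Figure D3:**
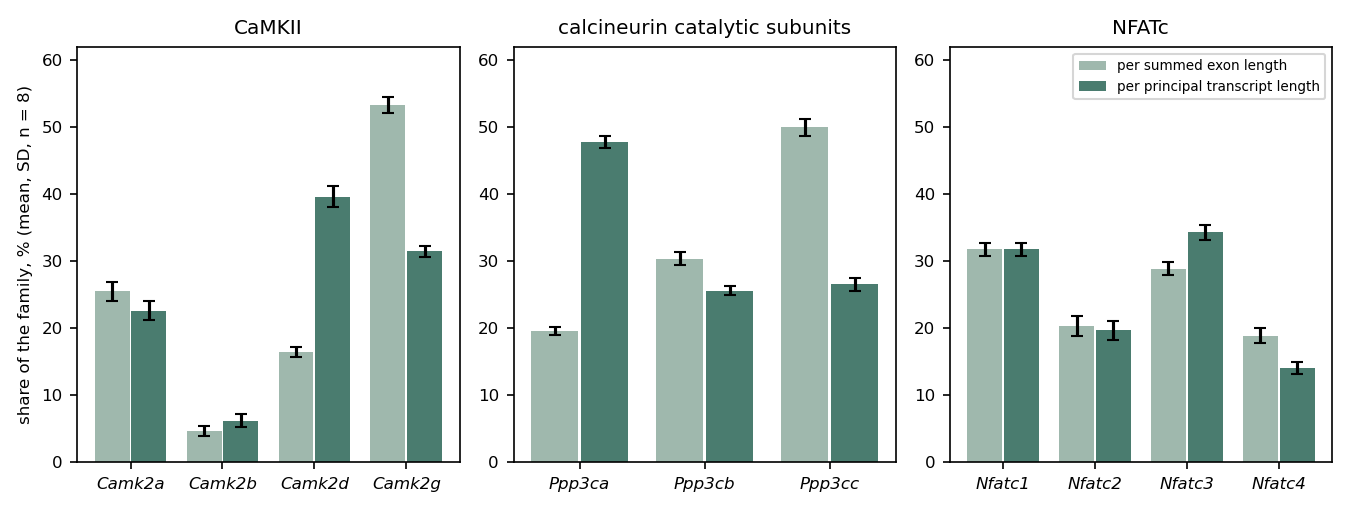
Share of each gene in the length-scaled sum of its family, in percent, as mean and SD over 8 libraries, per summed exon length in light bars and per principal transcript length in dark bars. Camk2d rises from 16.5% to 39.6% of CaMKII between the scales and Ppp3ca from 19.6% to 47.8% of the calcineurin catalytic genes, while Nfatc1 is at 31.8% on both.

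Camk2d, Ppp3ca and Ppp3cb were all lower in female replicates 1 and 3 than in female replicates 2 and 4, while in male replicates 1, 2 and 4 their deviations differed in sign. Pearson's r of log2 CPM over the 8 libraries was 0.95 between Camk2d and Ppp3cb, 0.76 between Camk2d and Ppp3ca and 0.73 between Ppp3ca and Ppp3cb. Spearman's rho was lower, at 0.64, 0.43 and 0.40 for the same pairs. Without female replicates 1 and 3, the libraries farthest from the median, r was 0.68, -0.32 and -0.25, so the likeness of Ppp3ca to the other two rests on those libraries. Rcan2 and Rcan1 were higher in female replicates 1 and 4 than in 2 and 3, and both were lowest among males in replicate 1. Rcan1 was at 98.9, 82.3, 83.0 and 95.6 CPM in females and 91.5, 98.4, 100.2 and 97.1 in males. By the same measure r was 0.85 between Rcan2 and Rcan1 (Spearman's rho 0.81, and r = 0.77 without the 2 libraries farthest from the median of Rcan2). That placed Rcan1 at 149 among 12139 genes with a mean log2 CPM of 1 or more. This pair, like the pairs of members above, was chosen after its values were seen.

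The genes most like the leading member of each family were found by the same measure, over 8 libraries that also differ in depth and sex, and are given as a description. For Camk2d they were the RNA helicase gene Ddx50 (r = 0.97, rho 0.88), Ppp1cb, a catalytic subunit of protein phosphatase 1 (r = 0.96, rho 0.76), and Tial1, an RNA-binding protein gene (r = 0.96, rho 0.88). Without female replicates 1 and 3, r was 0.73, 0.57 and 0.90, so the likeness of Ddx50 and Ppp1cb to Camk2d was weaker without those libraries. For Rcan2 they were the phosphatidylserine synthase gene Ptdss1 (r = 0.99), Stradb (0.97) and Slc35e1 (0.97), with 0.98, 0.96 and 0.98 without the 2 farthest libraries. For Nfatc3 they were Ctnna3, which encodes a catenin of heart cell junctions (r = 0.99), Ces1d (0.97) and Ttll5 (0.96), with 0.98, 0.86 and 0.87 without male replicates 1 and 2. The named genes were picked as the highest of 12139 correlations, so a high r follows from the choice. The r without 2 libraries used 6 of the same libraries. An r above 0.9 was reached by 20 genes for Camk2d, 50 for Rcan2 and 26 for Nfatc3.

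**Figure D4:**
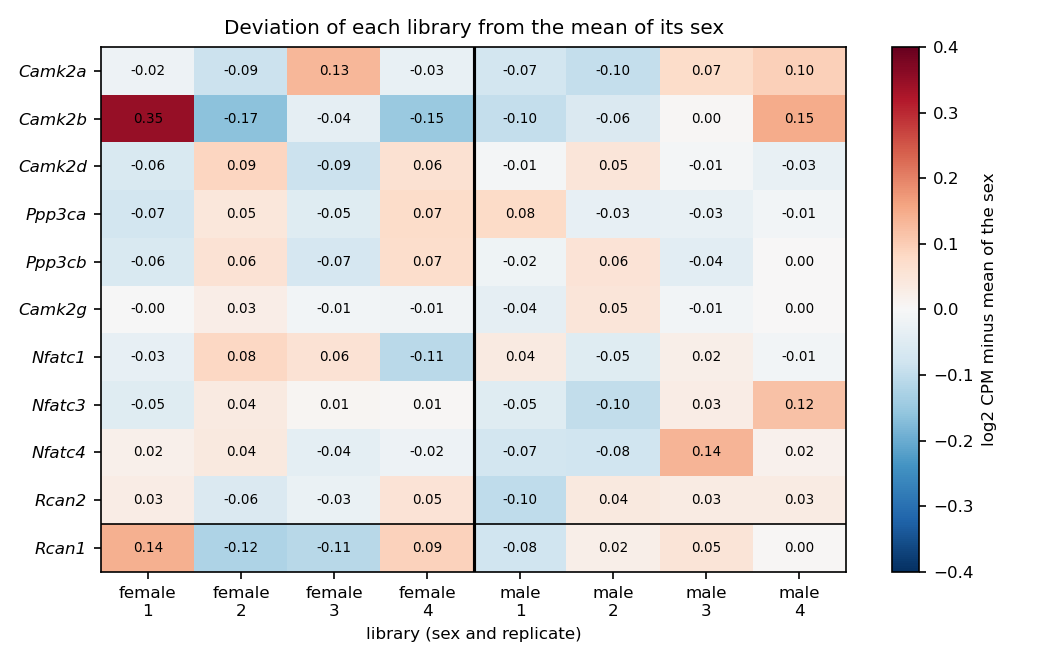
Deviation of log2 CPM of each library from the mean of its sex, for the 10 members and, below the line, Rcan1; red is above and blue below the mean, and the vertical line parts the sexes. Female replicate 1 of Camk2b deviates most, at 0.35, and Camk2d, Ppp3ca and Ppp3cb share their signs in all 4 female libraries but not in male replicates 1, 2 and 4.

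The rest of the pathway was read from 9 lists with 62 other genes, of which 56 were tested. Of these, 1 (Myoz2) passed the test with a higher male level and 1 (Dyrk2) with a higher female level, beside 2.03% and 1.76% of all genes called in those directions. The other 54 did not pass, and the median log2 fold change of the 56 was 0.01. The CPM of the sexes did not overlap for 7 of the 56, beside 12.0% of all genes. Of these, 6 were higher in males and 1 in females, beside 6.39% and 5.66% of all genes. Myoz2, Dyrk2, S100a1, Camk1 and Ppp3cc were among them. DESeq2 called 4 of 55 (Camk1, Dyrk2, Myoz2 and S100a1), beside its 6.13% of all genes. Calls in the lists below are those of edgeR unless another tool is named.

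Myoz2, also called calsarcin-1, encodes a Z-disc protein that tethers calcineurin and restrains it (chromosome 3). It was at 923, 899, 896 and 929 CPM in females and 1002, 1021, 1055 and 1018 in males, with every male above every female. The log2 fold change was 0.17 (SE 0.03, adjusted p = 0.021 by edgeR), 12.3% above the female level. Among the fits that left out libraries, the call was lost without female replicate 2 (adjusted p = 0.056), female replicate 3 (0.060) or male replicate 3 (0.073), and also without male replicates 1 and 4 together (0.076). Over the alternatives its adjusted p ran from 1.4e-05 to 0.079. It was the 1 called of 11 tested other calcineurin inhibitors and anchors (median log2 fold change 0.03).

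Dyrk2, of a kinase family that phosphorylates NFAT and returns it to the cytoplasm (chromosome 10), was at 25.0, 26.0, 27.8 and 23.5 CPM in females and 18.6, 20.1, 17.7 and 20.1 in males. All females lay above all males, and the level was 1.34-fold higher in females (log2 fold change -0.42, SE 0.06, adjusted p = 0.0049 by edgeR). The deposited annotation gives this gene 2137 exon bases, beside 6129 in its principal transcript in GENCODE M21. The counts therefore cannot cover all of that transcript. Dyrk2 was called in every alternative fitted (adjusted p up to 0.023). Of the 7 NFAT export kinases it was the one called, and the other 6 had log2 fold changes of -0.10 to 0.03. The adipocyte and fibroblast markers given above had the same direction, and their part in the Dyrk2 values was not tested.

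Of the 7 genes of calmodulin and its buffers, 0 were called by edgeR and 1 by DESeq2. Calm2, which encodes calmodulin, averaged 100.1 ± 3.4 CPM in female and 93.3 ± 8.9 in male libraries (log2 fold change -0.10, adjusted p = 0.39 by edgeR), and Calm3 averaged 212 ± 8.45 and 218 ± 7.02 (0.05). S100a1, a calcium-binding protein gene of heart muscle named after its values were seen, was called by DESeq2. It was at 488, 441, 468 and 470.0 CPM in females and 504, 519, 508 and 496 in males, without overlap (log2 fold change 0.12, adjusted p = 0.13 by edgeR). Among 6 other CaMKII regulators and anchors, 0 were called. The inhibitor gene Camk2n1 had a mean of 28.2 ± 1.9 CPM in female and 30.6 ± 2.64 in male libraries (0.11, adjusted p = 0.39 by edgeR), and Ppm1e, a phosphatase gene that acts on CaM kinases, had the smallest p (-0.19, adjusted p = 0.16). Of 7 other calmodulin-dependent kinases tested, 0 were called. Camk1 came nearest, with a mean of 73.3 ± 1.7 CPM in female and 80.8 ± 3.53 in male libraries (0.14, adjusted p = 0.077 by edgeR and 0.041 by DESeq2), without overlap.

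None of the remaining calcineurin subunit and RCAN genes was called by edgeR. Ppp3cc averaged 28.4 ± 1.27 CPM in female and 30.3 ± 0.568 in male libraries (log2 fold change 0.09, adjusted p = 0.25 by edgeR). Ppp3r1, which encodes the calcium-binding subunit, was at 51.1 ± 3.36 and 52.4 ± 1.01 (0.03). Ppp3r2, its counterpart of testis, had 1 count in all 8 libraries. Rcan1 was at 90.0 ± 8.55 and 96.8 ± 3.76 (0.11, adjusted p = 0.37 by edgeR) and Rcan3 at 13.6 ± 0.988 and 13.7 ± 0.593 (0.01).

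Nfatc2, the fourth calcineurin-dependent family member, is known from T cells and averaged 18.3 ± 1.29 CPM in female and 18.5 ± 1.81 in male libraries (log2 fold change 0.02). Its highest library was male replicate 1, at 20.99 CPM, which also had the raised leukocyte markers. Without that library the log2 fold change was -0.05, and the part of those markers was not tested. Nfat5, which responds to osmotic stress rather than to calcineurin, was at 59.1 ± 6.36 and 51.2 ± 2.88 (-0.21, adjusted p = 0.13 by edgeR). Of the 3 genes of the list of other NFAT genes, 0 were called. Downstream of CaMKII, 0 of 7 tested class IIa histone deacetylase and MEF2 genes were called, with log2 fold changes of -0.11 to 0.01 and the smallest p for Hdac9 (adjusted p = 0.28 by edgeR). Of 6 tested genes of calcium entry channels, 0 were called, with the smallest p for Trpc1 (-0.24, adjusted p = 0.23 by edgeR).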

How the data were processed

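RNA was measured in 8 heart libraries, 4 per sex. The authors deposited raw counts per gene. The submitters' processing notes name Trimmomatic 0.36, STAR 2.5.2b, featureCounts, Subread 1.5.2 and the build GRCm38. Annotation version, strand setting and treatment of reads with several matches are not given in the sources used here. The authors also deposited a normalized signal, found from the values to be the count divided by a size factor per library (0.863 to 1.2). Exon coordinates and lengths came from the deposited single-sample tables, and 48970 of 49315 IDs matched a symbol.

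In R 4.3.3, edgeR 4.0.16 supplied the filter on low counts (filterByExpr, with a minimum count of 10 and a minimum total of 15), TMM scaling and the quasi-likelihood test of males against females. Adjusted p-values are Benjamini-Hochberg values over the whole table. CPM used the scaled library sizes, log2 CPM a prior count of 2, and each SE was derived from the F statistic. One count was worth 0.0218 to 0.0302 CPM. Intervals of 95% are unadjusted.

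The members and lists were chosen with earlier results of these data known. All members are named. From each pathway list the text names its called genes or its gene with the smallest p, except for a result that is not reported here. Calm2, Calm3, Camk2n1, the calcineurin subunits, the RCAN genes and other NFAT genes were named regardless. Likeness was computed for the member of highest CPM in each family. Alternatives were DESeq2 1.42.0, limma 3.58.1 (voom, and log2 of the deposited signal plus 1), other scalings and filters, the replicate number as a block, and each library left out. Chosen after seeing the data were principal transcript lengths of GENCODE M21 and leaving out male replicates 1 and 4 together. The pairs compared among the members and Rcan1 were also chosen then. The procedure was tested on 1 set of simulated data with 16031 genes in the fit. It called 38% of 50 genes changed 1.25-fold, 72% of 50 changed 1.5-fold, 84% of 50 changed 2-fold and 96% of 50 changed 4-fold. Of its 156 calls, 11 were false. The changed genes were drawn at random from all genes that passed the filter, with no library made to stand apart. The rates are therefore not those of the members.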

Additional observations from a re-analysis of the deposited data

Results flagged for a closer look

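Rcan2 in male replicate 1 was at 437 CPM, apart from the other 3 male libraries at 479.5 to 482, a gap larger than the critical ratio of Dixon's test for 4 values. This was 1 of 20 groups examined (10 genes in 2 sexes), and chance flags about 1 in 20. The same library had the raised leukocyte markers, at 176 CPM in sum. Their part in the Rcan2 value was not tested.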

How the results depend on the processing

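The count of members called was 0 in edgeR and 1 (Camk2b) in DESeq2 and with no filter, and 0 to 1 with a library left out (1 without female replicate 1). The count of pathway genes was 2, with 4 in DESeq2 (6.13% of all genes), 1 under the replicate block (adjusted p of Myoz2 0.079) and without male replicates 1 and 4 together, and 1 to 2 with a library left out. The count over all genes was 613 of 16180, with 957 of 15620 in DESeq2 and 917 of 30541 with no filter. It was 217 without male replicates 1 and 4 together. With a library left out it was 315 to 490 (419 of 16553 without female replicate 1). It was 427 under the replicate block, which changed the call of no member. At an unadjusted p below 0.05 there were 5 of 10 members (19.5% of all genes), 1 under the block (18%) and 2 to 4 with a library left out (15.7% to 18.6%). Same-numbered libraries did not deviate together (correlations of -0.047 to 0.054 over genes), and 0 of the 4 female libraries correlated best with the male library of their own number.

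Directions of values near 0 reversed. Camk2g was at 0.0038 with no filter, 0.015 without male replicates 1 and 4 together, and -0.017 to 0.011 with a library left out. Nfatc2 was at -0.089 without male replicates 1 and 4 together and -0.047 to 0.0598 with a library left out, where Rcan3 was at -0.018 to 0.056 and Ppp3r1 at -0.0063 to 0.0596. Directions of the other 9 members were the same in all 17 alternatives.

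Shares depended on length. Per principal transcript, Camk2a, Camk2b, Camk2d and Camk2g held 22.7%, 6.21%, 39.6% and 31.5% of CaMKII, Ppp3ca, Ppp3cb and Ppp3cc 47.8%, 25.6% and 26.6% of their family, and Nfatc3 and Nfatc4 34.3% and 14.1%. In CPM without length, Camk2a, Camk2d and Camk2g held 23.8%, 46.3% and 24.6%, Ppp3ca, Ppp3cb and Ppp3cc 41.1%, 38.5% and 20.5%, and Nfatc1, Nfatc2, Nfatc3 and Nfatc4 27.3%, 24.9%, 39.1% and 8.78%. The 3 calcineurin genes therefore changed order with the length used, by construction of the scale. With 4 libraries per sex the 95% intervals of the members were 0.14 (Camk2g) to 0.46 (Camk2b) wide on the log2 scale.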
